A study of Drosophila melanogaster with 6 samples.

Results

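Tetraspanins are small membrane proteins that cross the membrane several times and gather receptors, adhesion molecules and proteases into patches of the cell surface and of endosomes. In Drosophila the family is large, and many of its genes lie side by side in the 42E cluster on chromosome arm 2R. Known fly members include late bloomer, which acts in synapse formation of motor neurons, Tsp2A, a component of the smooth septate junctions of the gut, and the TspanC8 group (Tsp3A, Tsp26A and Tsp86D), which steers the ADAM protease Kuzbanian and through it Notch.

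The genes described here are those measured under 1 current symbol that begins with Tsp and a number, which is the naming style of the fly tetraspanins by cytological position. There were 4 such genes, Tsp39D, Tsp42Eg, Tsp86D and Tsp96F, of 2216 named genes with values on all 6 arrays. RefSeq lists 34 protein-coding genes of this name pattern, so 30 were not measured under a single symbol here. By chromosome arm, 1 of 5 family members on 2L, 1 of 19 on 2R, 0 of 4 on 3L, 2 of 3 on 3R and 0 of 3 on X were measured. Of the 17 genes named Tsp42E with a letter, only Tsp42Eg had a clone of its own, and 2 further clones were annotated with a gene of that cluster together with another gene. Neither of the other fly tetraspanins listed for this purpose, lbm (late bloomer) and TM4SF, was measured under its name. The gene with the plain symbol Tsp encodes thrombospondin, which is not a tetraspanin, and is no member.

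The series compared untreated cells of 2 established Drosophila melanogaster lines, Kc167 and SL2, on 6 spotted cDNA arrays with 2 colours. Both lines come from embryos and are widely used as blood-cell-like cultures. Total RNA came from dense cultures at 22 °C. The medium was Schneider's with 5% fetal bovine serum for Kc167 and CCM3 for SL2, each containing 20 µg/mL of gentamicin, so the line and its medium cannot be told apart. On each array the cDNA of both lines competed for the same spots. On 3 arrays Cy5 marked Kc167 and Cy3 marked SL2, and on the 3 arrays called flipped here the dyes were the other way round. The arrays carry the numbers 1 to 3 in each orientation, and same-numbered arrays were averaged, which gave n = 3 replicates in which a dye effect cancels. Separate cultures for the replicates are not mentioned in the labels, and the p-values therefore cover only the spread of these samples, possibly a technical one.

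Values are log ratios per spot, taken as log2, and the number of arrays limits their precision. They are read as SL2 over Kc167, so a positive value lies on the SL2 side and a negative one on the Kc167 side. This direction is likely, not stated: SL2 comes first in the titles and is listed as channel 2 throughout. If it were the other way, all signs here would turn together. A ratio holds no expression level, so neither the abundance of a tetraspanin nor the presence of blood cell markers in each line can be read from it. Of 6 measured hemocyte markers, 4 were called higher in SL2 and 2 higher in Kc167 by limma's adjusted p. Of 6 markers of neurons, muscle, fat body and epithelium, 3 were called on the SL2 side. These counts stand beside 59.3% of named genes called, and the 2 sets were not tested against each other. The ratios of Pxn and Act88F among them also differed by dye orientation (limma adjusted p = 0.015 and 0.033). With each feature's own variance in place of limma's pooled estimate, which called 13% of all features for SL2 and 13.7% for Kc167, 2 and 1 of the hemocyte markers and 0 of the other markers passed. Each array with Kc167 in Cy5 held values for 15104 to 15885 of 16896 spots, and each flipped array for 16710 to 16844. All 4 tetraspanins were printed as 1 clone of 2 neighbouring spots. Spot pairs were averaged, and 2 values rest on 1 spot: those of Tsp42Eg on array 1 and of Tsp39D on array 2 with Kc167 in Cy5.

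The tetraspanins did not share a direction. Tsp86D was lower in SL2 than in Kc167, Tsp39D was slightly higher, and Tsp42Eg and Tsp96F did not pass the test. The test was limma's moderated test of the mean ratio against 0, two-sided, with Benjamini-Hochberg adjustment over all 7201 features (2216 named genes and 4985 clones without a name here) and a threshold of 0.05. Thus 2 of 4 passed, where 60.2% of all features and 59.3% of the named genes did: a share near the background. On the SL2 side, where 1 tetraspanin lay, 28.4% of all features and 30.5% of the named genes were called. On the Kc167 side, also with 1 tetraspanin, these shares were 31.8% and 28.7%. The median ratio of the 4 genes was -0.04, beside -0.02 for all features and 0.02 for the named genes.

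**Figure D1:**
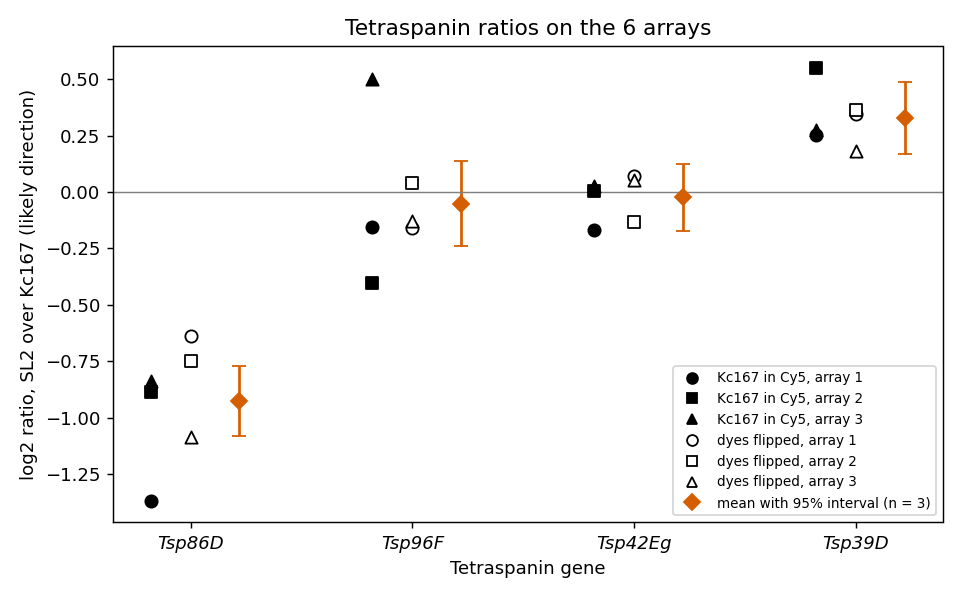
Log2 ratio (vertical axis, SL2 over Kc167 in the likely direction) of each tetraspanin gene (horizontal axis) on each of the 6 arrays, filled symbols for Kc167 in Cy5 and open symbols for flipped dyes, with the shape giving the array number; the diamond is the mean over n = 3 replicates with its 95% interval from limma. All 6 values of Tsp86D lie below 0 and all 6 of Tsp39D above it, while those of Tsp96F and Tsp42Eg lie on both sides.

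Tsp86D (CG4591, chromosome arm 3R), a tetraspanin of the TspanC8 group that acts with Kuzbanian, had the largest ratio in size of the 4. Its log2 ratios were -1.37, -0.88 and -0.84 on arrays 1 to 3 of the orientation with Kc167 in Cy5, and the flipped arrays gave -0.64, -0.75 and -1.09. All 6 were negative, with the first array with Kc167 in Cy5 lowest and its flipped partner highest. The mean was -0.93 ± 0.07 (SE, n = 3), with a 95% interval of -1.08 to -0.77 and a limma adjusted p of 2.4e-06. On a base of 2 this is 1.90-fold in favour of Kc167, with an interval of 1.71 to 2.12. The 3 replicate means had an SD of 0.10, and the 6 arrays one of 0.26. In limma fits of the 6 arrays with a dye term the SE was larger. It was 0.087 without a block for the replicate number and 0.093 with it. Among the 2216 named genes, 91 had a ratio as negative as that of Tsp86D or more so, itself included.

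The 2 spots of the Tsp86D clone were close to each other on each array. Their values differed by a median of 0.13 over the 6 arrays and by 0.25 at most, a size small beside the ratio itself. Over all clones the median gap between the spots of a pair was 0.14. The 3 arrays with Cy5 on Kc167 averaged -1.03 ± 0.29 (SD, n = 3) and the flipped arrays -0.82 ± 0.23. The difference between the orientations, -0.21 ± 0.19 (SE, n = 3), did not pass limma's test over all features (adjusted p = 0.50).

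Tsp39D (CG8666, arm 2L) lay on the SL2 side, with a small difference. Its ratios were 0.25, 0.55 and 0.27 with Kc167 in Cy5, and 0.34, 0.36 and 0.18 when flipped. All 6 were positive, and the highest, on array 2 with Kc167 in Cy5, is the value that rests on 1 spot. The mean was 0.33 ± 0.07 (SE, n = 3; 95% interval 0.17 to 0.49; limma adjusted p = 0.0028), or 1.26-fold. A ratio of this size was common: 865 of the 2216 named genes had one at least as large in either direction. One sign on all 6 arrays, as Tsp39D and Tsp86D had, was found for 49.9% of the named genes.

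The call of Tsp39D depended on how its error was estimated. With its own variance alone, the adjusted p of Tsp39D was 0.089. When each value was taken relative to the median of 24 clones printed around it, the ratio of Tsp39D was 0.20 (adjusted p = 0.048). The spots of its clone differed by a median of 0.26 over the 5 arrays where both had values, and by up to 0.33, which is as large as the mean ratio. The orientations gave 0.36 ± 0.17 (SD, n = 3) with Kc167 in Cy5, and 0.30 ± 0.10 when flipped.

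Tsp42Eg (CG12142, arm 2R), the only gene of the 42E cluster with a clone of its own, had mean ratios close to 0 on each array. They were -0.17, 0.005 and 0.03 with Kc167 in Cy5, and 0.07, -0.13 and 0.05 when flipped. Of the 6, 4 were positive and 2 negative, within a range of 0.24. The mean was -0.02 ± 0.07 (SE, n = 3; limma adjusted p = 0.77), and its 95% interval of -0.17 to 0.12 corresponds to at most 1.13-fold in either direction. Relative to the median of 24 clones printed around it, the ratio of Tsp42Eg was -0.14 ± 0.07 (limma adjusted p = 0.10), so this bound depends on the processing. The spread of Tsp42Eg over the 6 arrays was small: its SD of 0.10 was below that of most features, whose median was 0.21. Its 2 spots were less alike: over the 5 arrays where both had values they differed by a median of 0.26, the largest of the 4 genes, and by up to 0.37, more than its whole range over arrays.

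Tsp96F (CG6120, arm 3R) also had a mean near 0, but its arrays disagreed. Its ratios were -0.16, -0.40 and 0.50 with Kc167 in Cy5, and -0.16, 0.04 and -0.13 when flipped. The range of 0.91 was the widest of the 4 genes, against a median range of 0.52 over the named genes, and it came from arrays 2 and 3 of the orientation with Kc167 in Cy5. On array 3 both spots were high (0.54 and 0.46) and on array 2 both were low (-0.29 and -0.52), so on these arrays the spots were closer to each other than the arrays were. On flipped arrays 1 and 2 the spots of Tsp96F had opposite signs (-0.39 and 0.07, then 0.21 and -0.13). Their largest gap, 0.46, was the largest of the 4 genes. The mean was -0.05 ± 0.08 (SE, n = 3; 95% interval -0.24 to 0.14; limma adjusted p = 0.62), which allows up to 1.18-fold. Without replicate 3 the mean of Tsp96F was -0.17 (adjusted p = 0.16), and without replicate 1 or 2 it was 0.002 or 0.01.

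**Figure D2:**
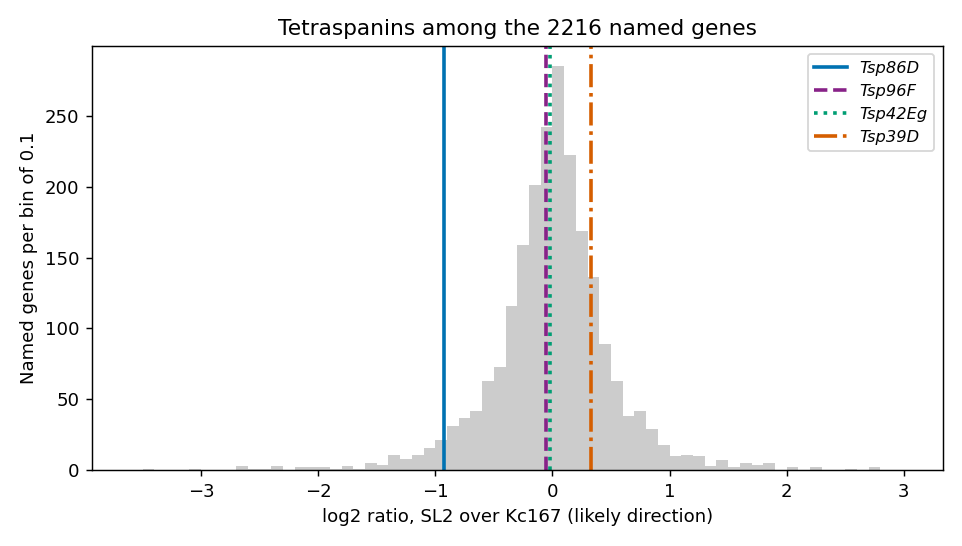
Number of named genes (vertical axis) in bins of 0.1 of the mean log2 ratio (horizontal axis, SL2 over Kc167 in the likely direction), with a line at the mean of each tetraspanin (n = 3 replicates). Tsp86D at -0.93 lies in the lower flank of the distribution, Tsp39D at 0.33 in the upper flank, and Tsp42Eg and Tsp96F in its centre.

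In order, the ratios ran from Tsp86D through Tsp96F and Tsp42Eg to Tsp39D. Tsp86D lay below each of the other 3 genes on all 6 arrays. The mean difference on the log2 scale was -1.25 ± 0.06 (SD of same-numbered means, n = 3) from Tsp39D. From Tsp42Eg it was -0.90 ± 0.13. On single arrays these differences ran from -1.62 to -0.98 and from -1.20 to -0.61. Tsp96F lay above Tsp86D by 0.87 ± 0.26, and by 0.48 to 1.34 on single arrays. Tsp39D lay above Tsp42Eg on all 6 arrays and above Tsp96F on 5. Tsp96F and Tsp42Eg, neighbours in this order, were not separated: Tsp96F was the higher on 3 arrays and the lower on 3, with a mean difference of -0.03 ± 0.15. These differences between genes are a description and were not tested.

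**Figure D3:**
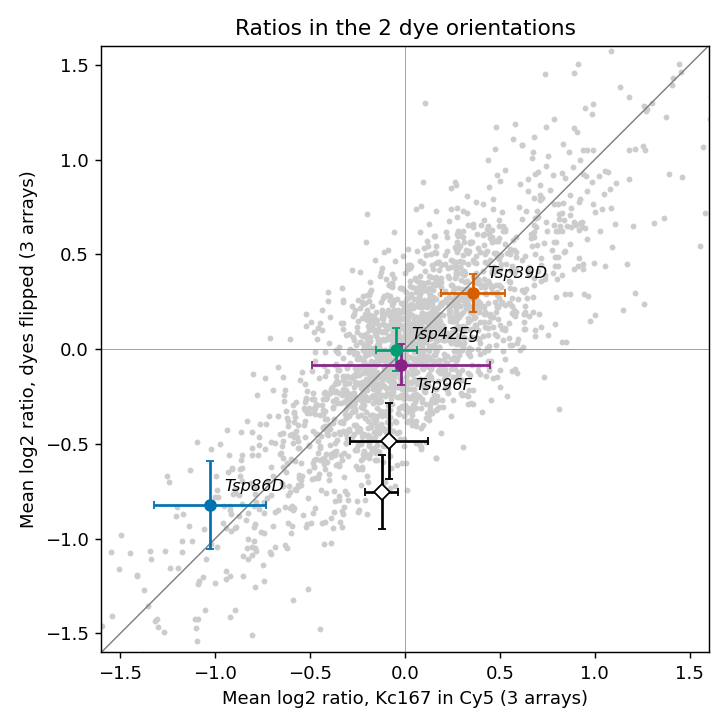
Mean log2 ratio of the 3 flipped arrays (vertical axis) against that of the 3 arrays with Kc167 in Cy5 (horizontal axis), with grey points for the named genes within 1.6 of 0 on both axes (58 lie outside), coloured points with SD bars for the tetraspanins and open diamonds for the 2 clones annotated with a gene of the 42E cluster and another gene. The tetraspanins lie near the line of equality, and both diamonds lie below it.

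None of the 4 tetraspanins passed limma's test of a difference between the dye orientations, which 5.96% of the named genes and 9.46% of all features passed. The 95% interval of that difference ran from -0.24 to 0.37 for Tsp39D, from -0.36 to 0.27 for Tsp42Eg, from -0.62 to 0.21 for Tsp86D and from -0.38 to 0.50 for Tsp96F.

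The 2 clones with shared annotation lay on the Kc167 side, unlike Tsp42Eg. They cannot be given to either of their genes and are not counted among the tetraspanins. The clone annotated with Tsp42Ea and CG30159 had -0.08, -0.22 and -0.06 with Kc167 in Cy5, and -0.77, -0.94 and -0.55 when flipped. Its mean of -0.44 ± 0.07 (SE, n = 3; limma adjusted p = 0.00059) was negative on all 6 arrays, yet the orientations did not overlap. From the 3 arrays with Cy5 on Kc167 by themselves it did not pass (-0.12, adjusted p = 0.29), and with its own variance alone its adjusted p was 0.078. Relative to the median of 24 clones printed around it, its ratio was -0.26 (adjusted p = 0.024). The clone annotated with CG30160 and Tsp42Eb had -0.32, 0.04 and 0.03 with Kc167 in Cy5, and -0.33, -0.41 and -0.71 when flipped, with a mean of -0.28 ± 0.07 (adjusted p = 0.0049). It too did not pass on those 3 arrays (-0.08, adjusted p = 0.54) or with its own variance alone (adjusted p = 0.074).

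Proteins that work with tetraspanins were measured in part. Kuzbanian, the protease that TspanC8 proteins guide, was not measured under its name, and neither was Notch. Of 17 genes listed for ADAM proteases, gamma-secretase and Notch only Meltrin and O-fut1 were measured. Meltrin, an ADAM protease of another kind, was on the SL2 side with 2.02 ± 0.10 (SE, n = 3; limma adjusted p = 1.9e-07), though its ratio also differed between the dye orientations (adjusted p = 0.041). O-fut1, which adds fucose to Notch, had 0.08 ± 0.07 and did not pass (limma adjusted p = 0.33).

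Integrins are classic partners of tetraspanins at the cell surface, and of 20 genes of integrins and their adhesion complex 6 were measured, none of them an integrin subunit. Fit2, a kindlin that activates integrins, had -0.57 ± 0.07 (SE, n = 3), and Pax, the adaptor paxillin, had -0.51 ± 0.07. Ilk, the integrin-linked kinase, lay on the other side with 0.39 ± 0.07. The 3 others did not pass, and the median of the 6 was -0.10. Thus 3 of 6 were called, 1 toward SL2 and 2 toward Kc167, where 59.3% of the named genes were called.

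Septate junctions seal epithelia and hold Tsp2A in the gut, and 7 of 29 listed genes were measured, Tsp2A not among them. M6, which encodes a proteolipid protein of junctions where several cells meet, had -1.04 ± 0.06 (SE, n = 3), close in size to Tsp86D. The sodium pump subunit gene nrv2 had -0.67 ± 0.11, and vari, the gene of a junction scaffold, 0.40 ± 0.08. With their own variance alone neither nrv2 (adjusted p = 0.14) nor vari (adjusted p = 0.094) passed. The other 4, with the polarity genes dlg1 and scrib among them, did not pass, so 3 of 7 were called where 59.3% of the named genes were. One of these 4, Snoo, encodes a transcriptional corepressor and no junction protein. The median of the list was -0.04. With its own variance alone dlg1 did pass, at a ratio of only -0.03 (adjusted p = 0.041).

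Tetraspanins are abundant on multivesicular bodies, lysosomes and the vesicles that cells release. The list of such genes had the most measured members, and with them the most called ones. Of 8 measured genes of extracellular vesicles, late endosomes and lysosomes, 5 were on the Kc167 side, 2 on the SL2 side and 1 did not pass. The SL2 side held Rab35, the gene of an endosomal GTPase, with 0.26 ± 0.07 and Lamp1 with 0.19 ± 0.07 (SE, n = 3); without replicate 1 or without replicate 3 Lamp1 did not pass (limma adjusted p = 0.17 and 0.093) and the count there was 1. The carrier of Wnt ligands wls had the largest ratio of them, -1.80 ± 0.08 (SE, n = 3; limma adjusted p = 5.7e-08). The lysosomal transporter gene spin had -0.67 ± 0.07 and also differed by dye orientation (limma adjusted p = 0.049). The SNARE gene Ykt6 had -0.48 ± 0.06 and cathD, the gene of the lysosomal protease cathepsin D, had -0.39 ± 0.07. The last gene called on the Kc167 side, nSMase, had -0.20 ± 0.07. Without replicate 1 or without replicate 2 nSMase did not pass (limma adjusted p = 0.080 and 0.24), and the count there was 4. The list's median was -0.30, and the share called, 7 of 8, stands beside 59.3% of all named genes. Of 3 measured ESCRT genes, which sort cargo into multivesicular bodies, only Vps4 passed (59.3% of named genes did). Vps4, the gene of the ATPase that takes the complex apart, had -0.21 ± 0.07 (limma adjusted p = 0.018). It did not pass without replicate 2 or without replicate 3 (limma adjusted p = 0.088 and 0.097). With its own variance alone the adjusted p of Vps4 was 0.057. With each feature's own variance, where 13.7% of all features were called on the Kc167 side and 13% on the SL2 side, 3 vesicle and lysosome genes were called on the Kc167 side and 0 on the SL2 side. In that setting 1 integrin complex gene was called on the Kc167 side, 0 septate junction genes on the SL2 side and 1 ESCRT gene on the SL2 side with 0 opposite. The septate junction genes then called toward Kc167 were M6 and dlg1, while nrv2 lost its call.

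**Figure D4:**
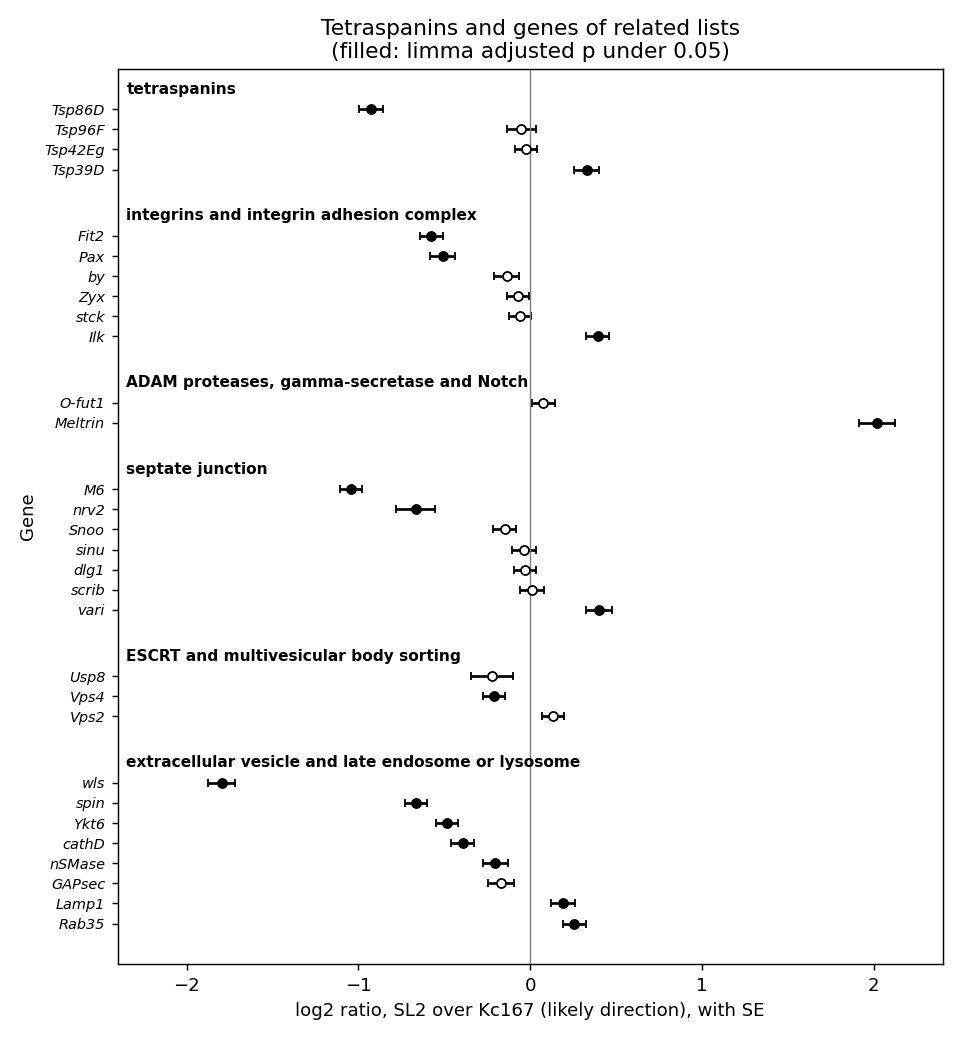
Mean log2 ratio (horizontal axis, SL2 over Kc167 in the likely direction) with its moderated SE (n = 3 replicates) of each tetraspanin and of each measured gene in 5 related lists (vertical axis), filled where limma's adjusted p was under 0.05. In each list with 3 or more measured genes some filled points lie to the left of 0, and wls at -1.80 and Meltrin at 2.02 lie furthest out.

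For each tetraspanin, the 2 nearest measured named genes on either side in gene order were taken, with 4 to 145 other genes in between. Among these 16 neighbours, 8 did not pass, 4 were higher in SL2 and 4 were higher in Kc167, beside 59.3% of the named genes called in either direction, so their share was near the background. The nearest measured neighbours of Tsp86D on 3R were CG4511 and CG6621, with 4 and 9 genes between. CG4511 had 0.42 ± 0.07 (SE, n = 3), and CG6621 had -0.12 ± 0.07 and did not pass. Those of Tsp39D on 2L were crc, the gene of the stress transcription factor ATF4, and Lamp1, the gene of a lysosomal membrane protein. With 4 genes between, crc had -0.36 ± 0.08, and with 143 between, Lamp1 had 0.19 ± 0.07. On 2R, CG17002, with 12 genes between it and Tsp42Eg, had -0.23 ± 0.07. Beyond it, Cyp6u1, with 18 between, had the largest ratio in size of the 16, -0.73 ± 0.07. The ratio of Cyp6u1 also differed by dye orientation (limma adjusted p = 0.028). On the other side of Tsp42Eg, Adk3, with 34 between, had 0.007 ± 0.07 and did not pass. On 3R, CG14546, with 9 genes between it and Tsp96F, had 0.39 ± 0.07 (limma adjusted p = 0.00072), and the lipophorin receptor gene LpR1, on the other side with 33 between, had -0.07 ± 0.07 and did not pass.

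By the root mean square difference of log2 ratios over the 6 arrays, a few named genes had a pattern much like that of a tetraspanin. Those most like Tsp86D were CG2608 (0.17), CG11436 (0.18) and Keap1 (0.19), the gene of an inhibitor of the oxidative stress response. For Tsp39D they were Usp1 (0.09), CG7202 (0.10) and CG17564 (0.10), against a median of 0.45. For Tsp42Eg they were S-Lap7 (0.06), Vha16-1 (0.06), a subunit gene of the proton pump of endosomes, and Dic3 (0.07), against a median of 0.35. For Tsp96F they were CG4712 (0.13), sNPF-R (0.13), the gene of a neuropeptide receptor, and Hen1 (0.16), against a median of 0.45.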

How the data were processed

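Per the labels, the authors quantified the spots with no background subtraction and derived the deposited log ratio, taken here as log2, from normalised data. The normalisation, log base and ratio direction were not given in the sources used here. Arrays of opposite orientation correlated at r = 0.64 to 0.83 over clones, so no sign was turned. With natural logarithms Tsp86D would be 2.53-fold and Tsp39D 1.39-fold, and the tests would be the same. No filter on dim spots was possible, as no intensities were analysed here.

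The 2 spots of a clone were averaged, then clones of a gene, and features with values on all 6 arrays were kept. The platform annotation gave 5666 spots 1 symbol, 152 several and 11078 none, and all 5666 were updated by Entrez identifier through the RefSeq gene table (Release 6 plus ISO1 MT), used for names, arms and gene order only. Same-numbered arrays were averaged and tested with limma version 3.58.1 (lmFit, eBayes) under R 4.3.3 (2 residual and 7.57 prior degrees of freedom). SE is the moderated standard error. The dye orientations were tested on the differences within same-numbered pairs. The test of the line difference was tried on simulated replicate means, some with a change of known size. Figures were drawn with matplotlib 3.10.9. The members, lists and alternatives were chosen with earlier results of these data known. The rule for named genes took each tetraspanin, up to 4 called members per related list with the largest ratios and the 3 genes most alike. It also took 2 measured neighbours on either side, of which the nearest were named, and Cyp6u1 for its ratio. Beyond the rule, all called vesicle and lysosome genes were named. Genes named as not passing, and both clones with shared annotation, were picked with their values in view. The alternatives were the dye term and replicate block, each orientation alone, centring, scaling, quantile normalisation, the features fitted, the variance model, the printing order and left-out arrays.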

Additional observations from a re-analysis of the deposited data

Results flagged for a closer look

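The clone annotated with Tsp42Ea and CG30159 had a ratio that differed between the dye orientations, by 0.63 ± 0.13 on the log2 scale (Kc167 in Cy5 minus flipped; SE, n = 3; limma adjusted p = 0.026), with means of -0.12 and -0.75. The difference was positive in all 3 same-numbered pairs; without replicate 1 its adjusted p was 0.084 and without replicate 2 it was 0.18.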

How the results depend on the processing

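Tsp86D kept its direction and its call under all 17 alternatives, with ratios from -1.05 to -0.82. Tsp39D kept its direction under all 17 (0.20 to 0.38) and lost its call without pooling of variance (0.33, adjusted p = 0.089), which left 1 tetraspanin called. Tsp42Eg and Tsp96F passed under none of them; Tsp42Eg ran from -0.14 to -0.003. The sign of Tsp96F turned in leave-one-out fits, which ran from -0.17 to 0.014 (0.002 without replicate 1). The labels do not say that the numbers pair the samples, and deviations of same-numbered arrays from their orientation's mean had correlations of -0.07, 0.10 and -0.09. The 6-array fit with a dye term called 2 tetraspanins, Tsp86D (-0.93) and Tsp39D (0.33), both with the replicate block and without it. With the block, 2010 features were called for SL2 and 2267 for Kc167, and without it 2075 and 2300. The main fit of averaged pairs called 2043 and 2289. With the named genes alone in the fit these counts were 689 and 648, since fewer features were tested, and without pooling they were 938 and 988. For the dye orientations, limma called 681 features (2107 at an unadjusted p under 0.05), 0 without pooling (1146 unadjusted) and between 1 and 994 with a replicate left out; the cause was not tested. Of 56 recounts of the related lists without pooling or a replicate, 44 were within 1.5 times the count given and 11 of the other 12 were lower. No signal over background is known here.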
